A study of Mus musculus with 9 samples.

Results

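A set of 59 genes was selected as nearly silent in testes of mice without the transcription factor RFX2. Counts were scaled to CPM (1000000 times the count over the library total). A gene was kept when its mean was at least 2 CPM in wild type testes, when its Rfx2-/- mean was at most 10% of that, and when every Rfx2-/- library lay below every wild type library. Of 23074 rows of the table, 13647 had a wild type mean of at least 2 CPM, and 101 of these (0.74%) met the other conditions. Genes whose symbols belong to large series such as Ccdc, Cfap, Dna, Tekt, Wdr, Ttc, Spata, Tex, Kif and Adam were then left out, which removed 42 genes and left 59. The difference between genotypes chose these genes, so their levels are given as a description, without a test.

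The data were RNA-seq read counts of 9 decapsulated testis samples, 1 library per mouse, taken at the age of 29 to 30 days (P30). Wild type mice gave 5 libraries and the other 4 came from Rfx2-/- mice, which carry the same constitutive deletion in all cells. In the Rfx2-/- mice, exon 7, which encodes most of the DNA binding domain, had been excised by Cre. Both genotypes were on a mixed C57BL/6|129/Sv|FVB/N background. Whole testes were measured, so fewer cells of a type and less RNA per cell cannot be told apart in any of the values below.

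RFX2 belongs to the RFX family of transcription factors, which bind the X-box, an inverted repeat of a short half-site. In the testis RFX2 is most abundant in late spermatocytes and round spermatids, the haploid cells that later grow a flagellum, build an acrosome and condense their nucleus. RFX factors are best known for genes of cilia and flagella, whose core is the axoneme. Removal of symbol series does not remove all such genes. Of the 59 genes, 7 are known from flagella, basal bodies or sperm tails (Iqub, Spag8, Odf3b, Fam161a, Cdkl1, Fam92b and Zfp474), and 21 stand in one of the cilium gene lists used in the study, 4 of them in the gold standard or potential list of Syscilia. That is 35.6% of the 59 genes, compared with 57.1% of the left-out genes, 36.3% of the other genes called lower in edgeR and 4.10% of all genes tested. The study gives these entries only for RFX2 targets and for genes it found differentially expressed. Any other gene counts here as not listed, so the 4.10% is a lower limit and no background share. The set is therefore described as nearly silenced genes outside the left-out symbol series, and not as genes without a role in cilia. One gene, ccdc198, was kept because its symbol is in lower case in GENCODE M21, and 58 genes remain without it.

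The promoters were examined first, because a peak of RFX2 binding and a sequence like the X-box were not used in the selection. RefSeq promoter sequences (GRCm38.p6, 250 bases before to 50 after the transcript start) were matched for 43 of the 59 genes. They were searched on both strands for the palindrome GTTGCCATGGCAAC, which joins the half-site GTTGCC and its reverse complement GGCAAC, with at most 3 mismatches over its 14 bases. Such a site was present in 7 of the 43 genes (16.3%), compared with 4.76% of 12201 genes tested for expression, 20.6% of the matched left-out genes and 15.8% of 366 other genes called lower. Over all 32851 promoter windows the share was 3.37%. The 7 sites are shown because they are the closest matches among the nearly silenced genes. Each is written 5′ to 3′ on the gene's strand with the 14 bases in capitals.
Glipr1l1: atgcttcaGTCTCCATGGCAACactggctg
Samt4: cttctctgGTGGCCATGGAAACatcagaat
Sh2d6: tgtctccaGTTGCCATGGAGACggagctgt
Ankmy1: gcgtggccGTCTCCACGGCAACgtgacgca
Sema4a: cgGTCGCCATGGTGACtaaggacc
Spag8: tgtttgccGTCTCTATGGCAACccgggagg
ccdc198: gaagggaaGTCTCCATGGAAACcaacctcc

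The windows printed lie at chr10:112060182-112060211 for Glipr1l1, chrX:154481977-154482006 for Samt4, chr6:72520014-72520043 for Sh2d6, chr1:92902914-92902943 for Ankmy1, chr3:88459111-88459134 for Sema4a, chr4:43653554-43653583 for Spag8 and chr14:49245430-49245459 for ccdc198. Glipr1l1 and Samt4 are on the plus strand and the other 5 on the minus strand. Glipr1l1, Samt4 and Sh2d6 had 2 mismatches and the other 4 genes 3. With the first transcribed base as position 0, the sites began at position 1 in Glipr1l1 and Sh2d6, at 19 in Spag8, at -17 in Samt4, at -23 in ccdc198 and at -29 in Ankmy1. Thus 6 of the 7 were centred within 60 bases of the start, where 50.7% of the 1108 windows with such a site had theirs. The exception was Sema4a, which has 4 RefSeq promoters, and whose site began at position -248 of one of them.

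The spacing of the 2 half-sites was then allowed to vary, a search that was added after the fixed palindrome had been seen. Both half-sites separated by 1 to 3 bases, with at most 2 mismatches over the half-sites, were found in 10 of 43 genes (23.3%), and in 8.50% of the 12201 tested genes. Among the matched left-out genes the share was 47.1%. The one perfect match was in the promoter of Fam92b, a gene for a BAR domain protein of the basal body, with 1 base between the half-sites, beginning at position -18 (chr8:120177469-120177493, minus strand). The other 9 genes had 2 mismatches. In Ankmy1, Glipr1l1, Samt4 and Sh2d6 the site was the one shown above. In Erich6, Sel1l2, Aldh3b1, Syna and Sema4a it was a site that the fixed palindrome misses, and Erich6 and Sel1l2 are shown because theirs, like that of Fam92b, are close to the start, at -23 and -28. The sites of Sema4a, Syna and Aldh3b1 began farther away, at -104, -205 and -250. The half-sites are in capitals.
Fam92b: tggcccGTTGCCtGGCAACcaggca
Erich6: tccgagGTTGCCctgGGAGACagacgc
Sel1l2: gaagtgGTTGCTtAGCAACtgagtc

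The Erich6 site lies at chr3:58637210-58637236 and the Sel1l2 site at chr2:140389720-140389744, both on the minus strand and both upstream of the start. A single half-site without mismatch was present in 8 of the 43 promoters (18.6%), against 15.5% of the tested genes and 44.1% of the matched left-out genes. The half-site alone was thus hardly more frequent than in all tested genes. TGACGTCA, the cyclic AMP response element bound by the spermatid factor CREM, occurred once, in the promoter of Chgb (2.33%, against 3.25% of the tested genes). A match of letters does not show that a factor binds there.

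RFX2 binding at the promoter was taken from the study's own list of chromatin immunoprecipitation peaks, made from dissociated germ cells and not whole testes of wild type mice at P21, when the most advanced cells are early round spermatids. Such a peak was listed for 9 of the 59 genes (15.3%): Hpcal4, Cdkl1, Erich6, Gm11444, Fam92b, Iqub, Sh2d6, Spag8 and Glipr1l1. The share was 40.5% for the 42 left-out genes, 16.9% for 474 other genes called lower and 6.10% for all 15613 genes tested. Of the 9 genes, 8 had a promoter sequence, and 5 of these contained the half-site without mismatch, compared with 3 of the 35 genes without a peak. The fixed palindrome was present in 3 of the 8 (Glipr1l1, Sh2d6 and Spag8) and in 4 of the 35. Median remaining levels were 3.80% of wild type with a peak and 4.40% without one.

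A second list from the study holds the genes lower in other Rfx2-/- mice at P21. It contained 23 of the 59 genes (39.0%), 50% of the left-out genes, 10.1% of the other genes called lower and 0.66% of all genes tested. Of the 59 genes, 4 were in both lists (Cdkl1, Fam92b, Iqub and Spag8), and 31 were in neither. Thus 4 of the 9 genes with a peak and 19 of the 50 without one were lower at P21. Both lists come from the same study and were read as given, and the second was not obtained from the libraries measured here.

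**Figure D1:**
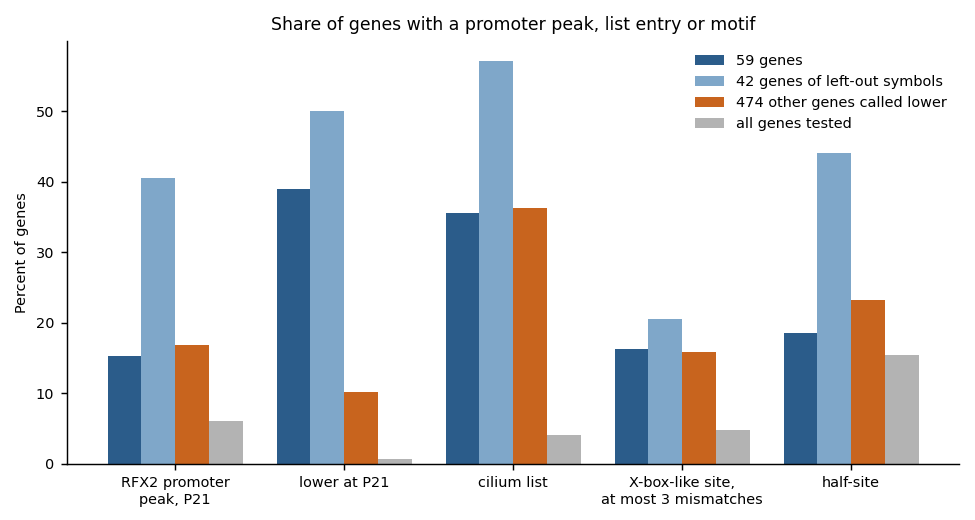
Percent of genes with an RFX2 promoter peak at P21, an entry in the list of genes lower at P21, an entry in a cilium list, an X-box-like site with at most 3 mismatches or a half-site. Bars stand for the 59 genes, the 42 genes of left-out symbols, 474 other genes called lower and all genes tested; the motif bars use the genes with a promoter sequence. The 59 genes had a promoter peak in 15.3% and the left-out genes in 40.5%. Cilium list entries exist only for RFX2 targets and genes differentially expressed in the study, so their bar for all genes tested is no background share.

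Total counts were between 13574764 and 15193330 in 8 libraries and 28800855 in Rfx2-/- replicate 1. Rfx2 itself had 525 ± 24.1 CPM in wild type (SD, n = 5), compared with 153 ± 60.8 CPM in Rfx2-/- testes (SD, n = 4), since reads of the remaining exons are still counted. The 14 markers of elongating spermatids summed to 13352 to 22118 CPM in wild type, against 11681 to 16066 CPM in Rfx2-/- libraries. That is on average 69.9% of wild type, and none of the 14 was at or under 10%. By gene they ranged from 48.1% (Prm1) to 143% (Hmgb4). The study reports that Rfx2-/- spermatids stop before they elongate. It describes Tnp1 and Tnp2, which are among these markers, as transcripts already present at the end of the round stage. The sum is therefore no measure of the number of elongating cells. The study also states that the mRNAs of Tnp1 and Tnp2 are not reduced in the knockout. Here they were at 51.4% and 65.2% of the wild type mean, and the genotypes overlapped in both. The 10 round spermatid markers stood at 121% and the 8 markers of meiotic prophase at 175% of wild type. The summed markers of late spermatocytes (111%), spermatogonia (116%), Sertoli cells (127%), Leydig cells (120%), peritubular cells (108%), macrophages (136%) and blood (136%) were also at or above the wild type mean. Of the 4 knockout libraries, replicate 2 had the largest of these marker sums except for Sertoli and peritubular cells. Meiotic prophase markers summed to 1376, 2669, 1291 and 1425 CPM in Rfx2-/- replicates 1 to 4. Their wild type sums were 763 to 1090 CPM. Blood markers summed to 27.2, 77.8, 39.5 and 42.4 CPM in the same order, and macrophage markers to 115, 193, 143 and 110 CPM. These 3 percentages thus depend in part on replicate 2. The sums also join genes that differ. By gene, macrophage markers ranged from 99.8% (Csf1r) to 278% (Lyz2) and round spermatid markers from 86.0% (Tssk2) to 186% (Catsper4). Late spermatocyte markers ranged from 75.2% (Pgk2) to 129% (Ldhc), and those of spermatogonia from 76.2% (Kit) to 144% (Stra8). The part of the marker shifts in the results was not tested. In edgeR, with an adjusted p of 0.01 or less and a change of more than 2-fold required, 575 of 15613 genes (3.68%) were called lower and 129 (0.826%) higher. In 7.06% of the tested genes every Rfx2-/- library was below every wild type library, and in 10.2% every one was above. All 59 genes are among the 575 and have no overlap, which the selection itself fixes or makes nearly certain.

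Together the 59 genes made up 1669, 1614, 1355, 1680 and 1749 CPM in the wild type libraries and 77.4, 73.9, 58.5 and 49.2 CPM in the Rfx2-/- libraries. The 4 knockout sums thus lay between 3.05% and 4.80% of the wild type mean. By gene, the remaining level had a median of 4.06% and ranged from 0 to 9.89%. It was under 1% in 6 genes, 1 to 2% in 6, 2 to 5% in 23 and 5 to 10% in 24. Most genes were still detected, since 48 of the 59 had at least 1 count in every Rfx2-/- library. In 8 genes every Rfx2-/- library had 3 or fewer counts, and in 2 of these none had any.

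In wild type testes the 59 genes had a median of 12.3 CPM, and 12 of them exceeded 50 CPM. Per kilobase of exons their median wild type level was 3.92 CPM, compared with 31.2 CPM for the left-out genes and 8.16 CPM for all genes with a wild type mean of at least 2 CPM, and 20 of the 58 genes with an exon length lay above that value. Their exons summed to a median of 2741 bases, against 3374.5 bases. The highest levels per kilobase in wild type were those of Ankrd7 (75.9 CPM), Iqub (50.2 CPM), Pdzk1ip1 (47.5 CPM) and Zfp474 (43.6 CPM). The genes lie on 18 chromosomes, and 1 of them, Samt4, is X-linked. By annotation 54 encode proteins, 3 are long intergenic RNAs and 1 is a pseudogene. The remaining gene, ENSMUSG00000079254, is absent from GENCODE M21 and is called Itprip in the study's gene table.

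**Figure D2:**
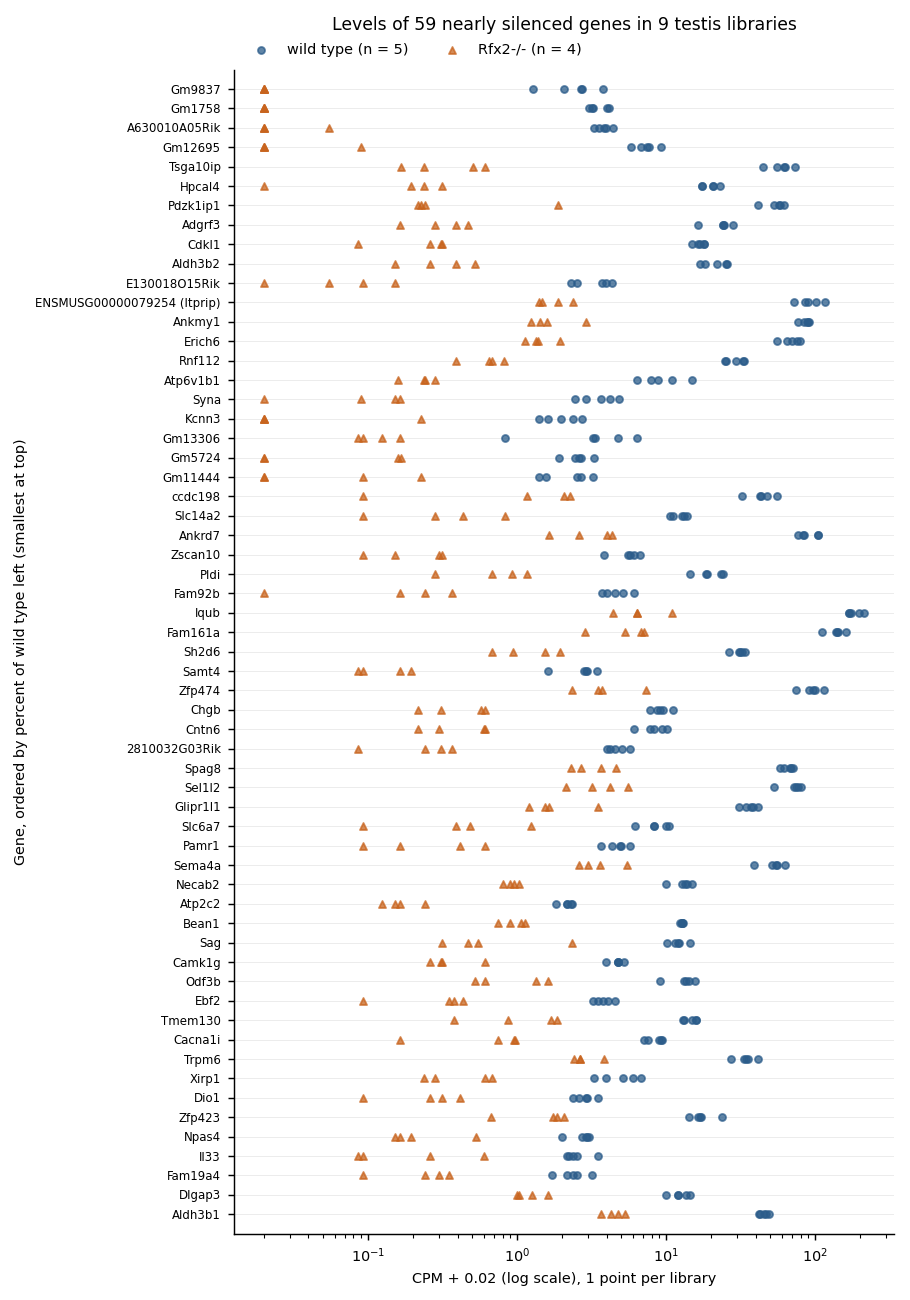
CPM plus 0.02 on a log axis for each of the 59 genes in each library, with genes ordered by the percent of wild type left; circles are the 5 wild type and triangles the 4 Rfx2-/- libraries. The genotypes do not overlap in any row, which the selection requires, and the triangles at the left edge are libraries with 0 counts, as for all 4 in Gm9837 and Gm1758.

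Genes of the testis, flagellum and basal body formed the largest group, with 15 members and a median of 3.83% of wild type left. They accounted for 976 ± 94.8 CPM in wild type (SD, n = 5), compared with 35.3 ± 9.74 CPM in Rfx2-/- testes (SD, n = 4), and 6 of the 9 genes with an RFX2 promoter peak are among them. Iqub (ENSMUSG00000046192, GRCm38 chromosome 6, 24444865 to 24515067), which encodes a protein of the radial spokes with an IQ motif and a ubiquitin-like domain, had 173, 167, 168, 196 and 213 CPM in the wild type libraries. The Rfx2-/- libraries had 6.39, 11.0, 6.32 and 4.41 CPM, or 3.83% of wild type. Rfx2-/- replicate 2 was the highest knockout library for this gene. Fam161a (chromosome 11, 23007531 to 23030788), a gene for a protein of centrioles and of the connecting cilium of photoreceptors, had 142, 141, 111, 137 and 161 CPM in wild type. In the knockout it had 7.08, 6.78, 5.29 and 2.83 CPM, or 3.97%.

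Zfp474 encodes a zinc finger protein of the testis. Its levels were 90.6, 96.5, 74.5, 99.2 and 115 CPM in wild type, against 7.29, 3.68, 3.45 and 2.30 CPM in Rfx2-/- testes (4.40%). Ankrd7 (chromosome 6, 18866318 to 18879586), an ankyrin repeat gene of the testis, had 105, 77.2, 84.0, 104 and 82.8 CPM and then 4.34, 3.97, 1.62 and 2.57 CPM (3.45%). In both genes Rfx2-/- replicate 1 held the highest knockout value. Ankmy1 (chromosome 1, 92859803 to 92902906), with ankyrin repeats and a MYND zinc finger, had 89.6, 91.2, 76.5, 87.7 and 84.4 CPM and then 2.88 CPM in Rfx2-/- replicate 1 and 1.23 to 1.58 CPM in the other 3 (2.06%). Its exons overlap those of Gpc1 on the opposite strand over 977 bases, or 20.2% of its exon length. Gpc1, which encodes the proteoglycan glypican 1, fell from 16.3 ± 1.41 to 8.41 ± 2.41 CPM (51.5% left; SD, n = 5 and 4; log2 fold change -1.10, SE 0.18, edgeR adjusted p 0.00167), and without Rfx2-/- replicate 4 its log2 fold change was -0.97 and under the 2-fold limit. Reads overlapping exons of different genes were discarded by the authors. Reads of this overlap entered neither count if the authors' annotation holds it and strand was not used. The overlap was taken from GENCODE M21 and not checked in their annotation, and the use of strand is not stated.

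Sel1l2, a testis relative of the endoplasmic reticulum degradation gene Sel1l, had 76.1, 72.3, 53.1, 80.3 and 74.3 CPM in wild type, against 4.20, 5.55, 3.16 and 2.11 CPM in the knockout (5.27%). Erich6, named for its glutamate-rich protein, had 64.7, 75.3, 55.0, 79.4 and 70.2 CPM and then 1.91, 1.37, 1.32 and 1.12 CPM (2.08%). In both genes wild type replicate 3 was the lowest wild type library. Spag8, a sperm antigen that binds microtubules, had 68.9, 68.0, 58.1, 61.4 and 70.5 CPM and then 2.67, 4.61, 2.28 and 3.62 CPM (5.04%). Tsga10ip (chromosome 19, 5390049 to 5402526) encodes a partner of the testis protein TSGA10 and was the most reduced of the 10 genes with the highest wild type CPM. It had 61.4, 62.7, 44.9, 55.0 and 73.5 CPM in wild type, against 0.486, 0.216, 0.147 and 0.592 CPM in Rfx2-/- testes, or 0.606%.

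Cdkl1 (chromosome 12, 69746848 to 69791267) encodes a cyclin-dependent kinase-like protein; kinases of this family are linked to the length of cilia. It had 16.4, 14.9, 17.8, 17.0 and 18.0 CPM in wild type, against 0.243, 0.288, 0.294 and 0.0658 CPM in the knockout (1.32%). Its exons overlap over 417 bases with those of 4930512B01Rik on the opposite strand, one of the left-out genes, which had 2.63 CPM in wild type, against 1.61% of that left. If the authors' annotation holds the same overlap and strand was not used, reads of these 417 bases entered neither count. The other members of the group were Fam92b (3.80% left), Odf3b (7.64%), a gene of the outer dense fibre 3 family, the testis genes ccdc198 (3.12%) and Samt4 (4.20%), and Glipr1l1 (5.35%), which encodes a surface protein of sperm. Fam92b and Samt4 were below 5 CPM in wild type, and the others between 13.1 and 44.2 CPM.

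A group of 11 genes encodes ion channels, pumps, transporters or calcium sensors, mostly known from brain or kidney. Their median remaining level was 6.15%, and 1 of them had a promoter peak. That gene, Hpcal4 (chromosome 4, 123183227 to 123194701), encodes a neuronal calcium sensor of the visinin-like type. It had 22.8, 17.3, 17.5, 20.4 and 20.7 CPM in wild type, against 0.174, 0.216, 0.294 and 0 CPM in Rfx2-/- testes (0.866%), the last being a library without a read of this gene. ENSMUSG00000079254, called Itprip in the study's table after the protein that interacts with the inositol trisphosphate receptor, had the most reads of the group. Its levels were 88.8, 85.9, 71.8, 100.4 and 116 CPM in wild type, against 1.87, 1.44, 2.35 and 1.38 CPM in the knockout (1.90%).

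The proton pump subunit gene Atp6v1b1, active in acid-secreting cells, had 9.76 ± 3.30 CPM in wild type (SD, n = 5), compared with 2.15% left. The urea transporter gene Slc14a2 retained 3.18%, and 2.04% without Rfx2-/- replicate 3. The proline transporter gene Slc6a7, whose value is the median of the group, retained 6.15%, and 3.49% without Rfx2-/- replicate 1, which held 35 counts against 1, 5 and 7 in the others. Of the channel genes, Trpm6, for a magnesium channel joined to a kinase, retained 8.36% of 34.4 CPM and Cacna1i, for a T-type calcium channel, 8.19% of 8.43 CPM. Kcnn3 (calcium-activated potassium channel) was the gene closest to the limit of level, at 2.01 CPM. It had 32, 37, 23, 28 and 20 counts in wild type and 6, 0, 0 and 0 counts in Rfx2-/- replicates 1 to 4. Atp2c2 (calcium and manganese pump of the secretory pathway) retained 7.02% of 2.14 CPM, and Necab2 (calcium-binding protein of neurons) 6.96% of 13.0 CPM. Camk1g, a calmodulin-dependent kinase gene, had 5.23, 4.71, 4.74, 3.91 and 4.73 CPM in wild type, against 0.243, 0.288, 0.294 and 0.592 CPM in the knockout, where replicate 4 was the highest.

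A group of 9 genes is known mainly from neurons, sense organs or secretory cells. They retained a median of 7.41%, none had a promoter peak, and their sum was 153 ± 13.0 CPM in wild type, against 9.53 ± 1.88 CPM in Rfx2-/- testes (SD, n = 5 and 4). The neural ubiquitin ligase gene Rnf112 was the most reduced, with 2.10% of 29.1 CPM left. Chgb (secretory granule protein chromogranin B) retained 4.41%, Cntn6 (adhesion protein contactin 6) 4.92%, Sema4a (a membrane semaphorin) 6.95%, Bean1 (a brain protein that binds NEDD4) 7.41%, Tmem130 (a membrane protein) 8.14%, Fam19a4 (a small secreted protein) 9.49% and Dlgap3 (a scaffold of the postsynaptic density) 9.76%. Bean1 varied least in wild type, at 12.7 ± 0.249 CPM (SD, n = 5). Sag, the gene of visual arrestin, had 11.9, 14.5, 12.1, 10.1 and 11.5 CPM in wild type, against 0.451, 2.31, 0.294 and 0.527 CPM in the knockout. Rfx2-/- replicate 2 alone held most of its remaining reads, and without that library 3.53% was left in place of 7.45%.

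Surface or signalling proteins are encoded by 6 genes, with a median of 3.24% left. Pdzk1ip1, which encodes a small membrane protein of epithelia, had 61.5, 56.8, 41.1, 57.6 and 52.6 CPM in wild type, against 0.208, 1.87, 0.220 and 0.197 CPM in Rfx2-/- testes. Here too replicate 2 stood apart, and without it 0.387% was left in place of 1.16%. The adhesion receptor gene Adgrf3 had 28.1, 24.4, 16.2, 23.9 and 24.0 CPM and then 0.451, 0.144, 0.367 and 0.263 CPM (1.31%). Syna, for syncytin A, an envelope protein of retroviral origin that fuses cells in the placenta, had 35 to 65 counts in wild type and 2, 2, 0 and 2 counts in Rfx2-/- libraries (2.41%). Sh2d6 (an SH2 domain adaptor) retained 4.06% of 30.8 CPM and Pamr1 (a secreted protein with a peptidase domain) 6.41% of 4.69 CPM. Il33, an interleukin 1 family cytokine gene, had 2.36, 2.21, 2.51, 3.49 and 2.16 CPM in wild type, against 0.243, 0.577, 0.0735 and 0.0658 CPM in the knockout. Its remaining 9.43% came mostly from replicate 2, and it was 5.01% without that library.

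Metabolic enzymes are encoded by 3 genes. The aldehyde dehydrogenase genes Aldh3b1 and Aldh3b2 lie 42.5 kb apart on chromosome 19 and differed in what was left. Aldh3b2 had 25.1, 21.9, 16.7, 18.3 and 25.5 CPM in wild type, against 0.243, 0.505, 0.367 and 0.132 CPM in Rfx2-/- testes (1.45%), whereas Aldh3b1 had 42.0, 46.5, 42.5, 45.1 and 49.2 CPM and then 4.24, 5.26, 4.70 and 3.62 CPM (9.89%). They share sequence with each other and with Aldh3b3, over 24.2% of the 50-base stretches of Aldh3b2 transcripts and 8.97% of those of Aldh3b1, and reads with several positions were discarded by the authors, so their levels are uncertain. Dio1, a gene for a thyroid hormone deiodinase, retained 8.81% of 2.85 CPM. The 4 transcription factor genes kept a median of 8.32%. They were Zscan10 (3.48%), known from embryonic stem cells, Ebf2 (7.75%), known from brown fat and neurons, Zfp423 (8.88%), a partner of EBF factors, and Npas4 (8.92%), an activity-dependent factor of neurons. Npas4 had 3.02, 1.99, 2.72, 2.86 and 2.92 CPM in wild type, against 0.174, 0.144, 0.514 and 0.132 CPM in the knockout. Replicate 3 was the highest, and 5.55% was left without it. Xirp1, for an actin-binding protein of muscle, retained 8.60% of 5.02 CPM.

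The last 10 genes are uncharacterised or noncoding, with a median of 2.21% left. Gm9837 had 28, 37, 18, 38 and 54 counts in wild type, and the pseudogene Gm1758 had 54, 43, 43, 46 and 59. Both had 0 counts in all 4 Rfx2-/- libraries, and with 3 counts per library as the upper limit that a count of 0 allows they were at least 13.5-fold and 18.9-fold lower. A630010A05Rik lies 53.1 kb from Gm1758 on chromosome 16 and had 48, 53, 47, 55 and 63 counts in wild type and 1, 0, 0 and 0 counts in the knockout. Of the pooled level 0.369% was left, with an exact 95% Poisson interval of 0.00935% to 2.06% for counting error. Gm12695 had 104, 79, 107, 97 and 132 counts in wild type and 2, 0, 0 and 0 in the knockout, or 0.379% of the pooled level with an interval of 0.0458% to 1.37%. In both genes the single library with reads was Rfx2-/- replicate 1, the most deeply sequenced.

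The long noncoding RNA E130018O15Rik had 1, 1, 0 and 2 counts in the Rfx2-/- libraries, or 1.78% of wild type, and 1.07% without replicate 4. Of the other noncoding RNAs, 2810032G03Rik retained 4.92% and Pldi, a noncoding RNA of the testis, 3.77% of 19.8 CPM. Gm5724 (2.79%), Gm11444 (3.12%) and Gm13306 (2.63%) were at 2.26 to 3.69 CPM in wild type. Gm11444 had 6, 0, 1 and 0 counts in the knockout and 1.08% left without replicate 1, and Gm5724 had 4, 0, 2 and 0 counts and 1.8% left without replicate 3. Gm13306 shares 75.1% of its 50-base stretches with Ccl27a and other genes and varied 0.810 to 6.34 CPM among wild type libraries, so its level is uncertain. Of the other genes with transcripts, 46 shared under 1% of their sequence, and Cdkl1 (16.0%), Syna (13.3%) and Ankmy1 (19.2%) over 10%.

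**Figure D3:**
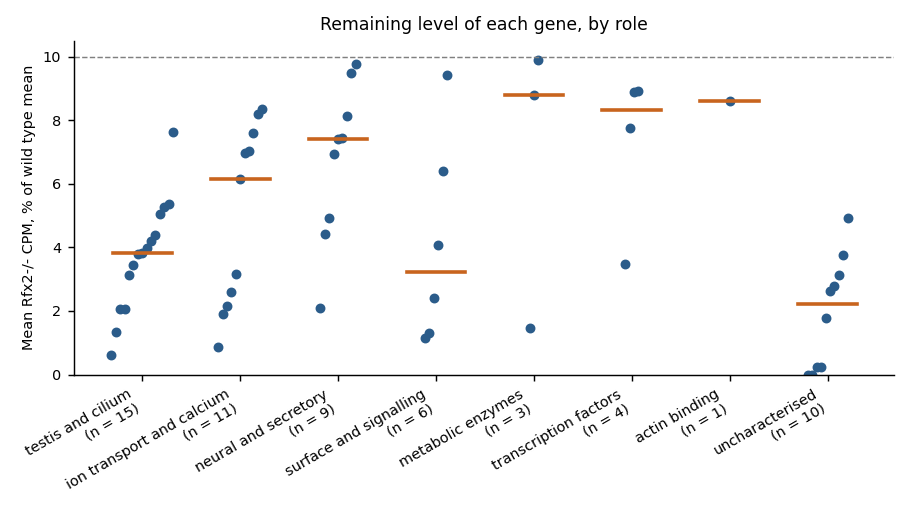
Mean Rfx2-/- CPM as percent of the wild type mean for each of the 59 genes, grouped by known role, with the group median as a bar and the 10% limit of the selection as a dashed line. The medians are 3.83% for testis and cilium genes, 6.15% for ion transport and calcium genes and 7.41% for neural and secretory genes.

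The limits of the selection cut through a continuous range. Just inside the limit of 10% were Fam19a4 (9.49%), Dlgap3 (9.76%) and Aldh3b1 (9.89%), and just outside it were Ndufa4l2 (10.1%), Me3 (10.1%) and Irf4 (10.3%). Another 55 genes met the other conditions with 10 to 20% left. At the limit of level, Kcnn3 (2.01 CPM), Atp2c2 (2.14 CPM) and Gm11444 (2.26 CPM) were inside and Slc22a12 (1.70 CPM), Aldh3b3 (1.56 CPM) and Sec14l3 (1.47 CPM) outside.

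Relatives of the nearly silenced genes were not chosen by the rule and could be tested. A list of 33 gene families contained 112 paralogues in the count table, of which 93 were tested, and 7 of them (7.53%) were called lower and 0 higher in edgeR. The background is 3.68% lower, and the median log2 fold change of the 93 was 0.04. A relative that met the rule counts among the 59 genes, so these counts describe the remaining relatives only and allow no contrast with the selected genes. No paralogue could be tested in the families of Slc14a2 and Xirp1. None of 19 tested subunits of the proton pump that contains ATP6V1B1 was called, and Atp6v1b2, for the other isoform of the same subunit, had 64.2 ± 6.22 CPM in wild type, against 62.0 ± 11.4 CPM in Rfx2-/- testes (SD, n = 5 and 4; log2 fold change -0.18, SE 0.15, edgeR adjusted p 0.451).

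Fam161b, the relative of Fam161a, was at 91.7% of wild type (log2 fold change -0.25, SE 0.14, edgeR adjusted p 0.275). Tsga10, whose product is the partner of TSGA10IP, had 302 ± 31.6 CPM in wild type, against 393 ± 108 CPM in the knockout (SD, n = 5 and 4; log2 fold change 0.23, SE 0.19, edgeR adjusted p 0.439). Among the kinases related to Cdkl1, Cdkl2 was at 64.0% of wild type (log2 fold change -0.78, SE 0.13, edgeR adjusted p 0.00156) and Cdkl4 at 185% (log2 fold change 0.76, SE 0.14, edgeR adjusted p 0.00393), both under 2-fold and in opposite directions.

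The 7 paralogues called lower were in the families of aldehyde dehydrogenases, granins, TRPM channels, SAMT, ERICH6 and ODF3. Aldh3b3, a gene of the same cluster as Aldh3b1 and Aldh3b2, fell from 1.56 ± 0.365 to 0.0548 ± 0.0703 CPM (SD, n = 5 and 4; log2 fold change -5.06, SE 0.57, edgeR adjusted p 8.52e-05). The relatives outside the cluster, Aldh3a1 and Aldh3a2, were at 83.2% and 87.0% of wild type (edgeR adjusted p 0.418 and 0.101). Odf3l1, related to Odf3b, fell from 83.8 ± 11.6 to 25.1 ± 4.34 CPM (SD, n = 5 and 4; log2 fold change -1.87, SE 0.18, edgeR adjusted p 2.60e-05), and Odf3 itself was at 145% (edgeR adjusted p 0.197).

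Samt3, related to the X-linked Samt4, fell to 28.9% (log2 fold change -1.97, SE 0.31, edgeR adjusted p 0.00122). Samt2 was too low to be tested, at 0.996 CPM in wild type, against 0 counts in every Rfx2-/- library. Erich6b fell to 38.1% (log2 fold change -1.51, SE 0.28, edgeR adjusted p 0.0042), Trpm8 to 38.5% (log2 fold change -1.50, SE 0.24, edgeR adjusted p 0.00114) and Trpm5 to 36.6% (log2 fold change -1.57, SE 0.29, edgeR adjusted p 0.00389). The granin Vgf had 44.0% left (log2 fold change -1.31, SE 0.26, edgeR adjusted p 0.00651). These last calls were close to the limit. The call of Vgf was lost without any single library other than Rfx2-/- replicate 2 or wild type replicate 3 (edgeR adjusted p up to 0.0277). Trpm5 was not called without Rfx2-/- replicates 1, 3 or 4 or wild type replicates 1, 2 or 4 (up to 0.0192), and Erich6b without Rfx2-/- replicates 3 or 4 or wild type replicates 1, 2, 4 or 5 (up to 0.0155).

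**Figure D4:**
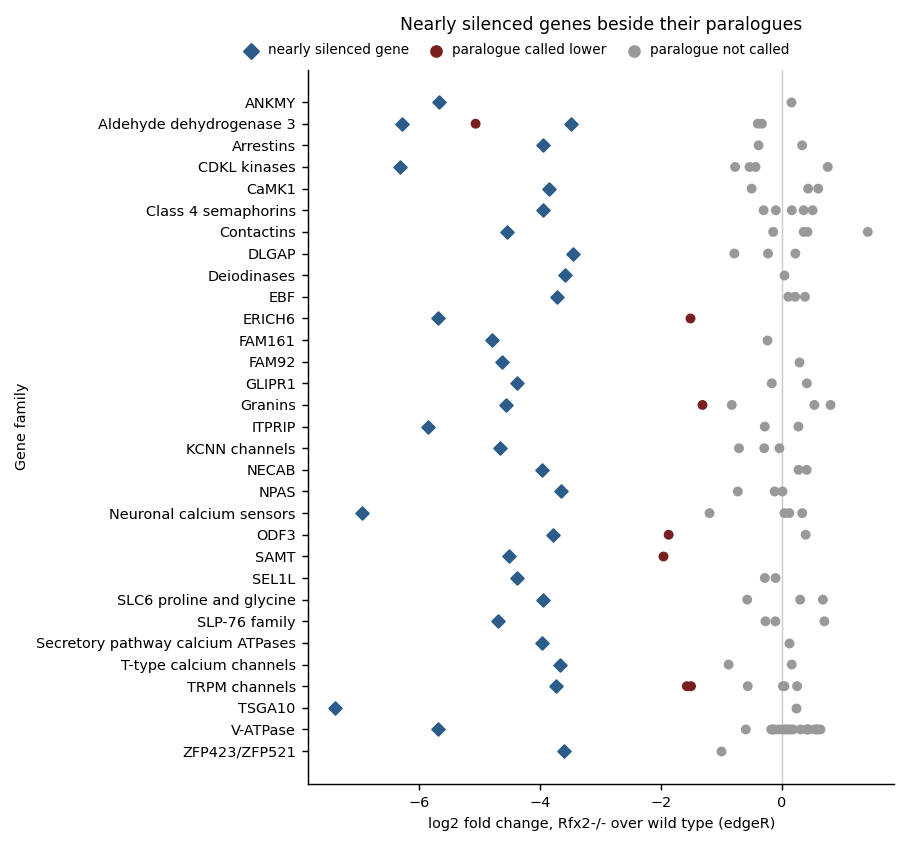
Fitted log2 fold change (Rfx2-/- over wild type, edgeR) of nearly silenced genes (diamonds) and of their tested paralogues (circles, dark where called lower), by gene family. The diamonds lie at the left by selection, and 86 of the 93 paralogues were not called.

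Neighbouring genes were examined in the same way. Of the 58 genes with a position, 3 had another counted gene starting within 1 kb on the opposite strand. Hmx1 starts 632 bases from E130018O15Rik and had 26.7 ± 3.64 CPM in wild type, against 23.5 ± 6.83 CPM in the knockout (SD, n = 5 and 4; log2 fold change -0.31, SE 0.19, edgeR adjusted p 0.288). Klhl29 starts 188 bases from 2810032G03Rik and had 3.14 ± 1.06 and 4.81 ± 1.93 CPM (SD, n = 5 and 4; log2 fold change 0.48, SE 0.30, edgeR adjusted p 0.309). Neither gene was called. The third neighbour was 4930512B01Rik beside Cdkl1. Within 100 kb, pairs of nearly silenced genes were Gm1758 with A630010A05Rik, Aldh3b1 with Aldh3b2, and Adgrf3 with Drc1, a left-out gene of the axonemal dynein regulator, 75.7 kb away on chromosome 5.

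The libraries of a genotype differed, and the 59 genes followed some of these differences. Among the wild type libraries, replicate 3 was the lowest in 37 of the 59 genes, with a median log2 deviation of -0.28 from the others, while the other 4 libraries lay at 0.03 to 0.08. The left-out genes deviated by -0.24 in that library. Its elongating spermatid markers summed to 13352 CPM against 17764 to 22118 CPM, and its round spermatid markers to 1206 CPM against 1498 to 1583 CPM. The same library had the highest wild type sums of the markers of Sertoli cells (342 CPM against 233 to 276 CPM), Leydig cells (919 against 654 to 837 CPM), peritubular cells (240.4 against 193 to 210.1 CPM), macrophages (137 against 88.2 to 106 CPM) and spermatogonia (188 against 134 to 160 CPM). The part of these markers in the deviation was not tested. Without this library 65 genes met the rule, including all 59.

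Among the Rfx2-/- libraries, replicate 1 was the highest in 24 genes, with a median log2 deviation of 0.34, and replicate 4 the lowest in 24, with -0.42. Replicate 2 deviated by gene length: among the 59 genes the median log2 deviation was 0.30 for 19 genes whose exons sum to under 2 kb and -0.43 for the 10 genes over 4 kb, and over all genes with a wild type mean of at least 2 CPM the corresponding values were 0.68 and -0.51. The trend was opposite in replicate 1, with 0.09 and 0.61 among the 59 genes and -0.41 and 0.29 over all genes, and in replicate 3, with -0.19 and 0.26 and with -0.17 and 0.27. Rfx2-/- replicate 2 also held markers of the epididymis, the duct next to the testis. The 10 such markers summed to 289.6 CPM there and to 1.18 to 6.97 CPM in the other 8 libraries. Crisp1 (242 CPM), Adam7 (28.0 CPM), Rnase9 (9.88 CPM) and Defb42 (8.22 CPM) made up most of this sum, whereas Lcn8, Lcn9, Rnase10 and Bsph1 were at 0 in the same library. Pdzk1ip1 and Sag, which are known from epithelia and photoreceptors, were high in the same library, and the part of epididymal RNA and of gene length in these values was not tested. Without replicate 2 the rule was met by 56 genes, 51 of them among the 59. The 8 that left the list had between 10 and 11.6% remaining (Cacna1i, Dio1, Dlgap3, Tmem130, Zfp423, Npas4, Fam19a4 and Xirp1).

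**Figure D5:**
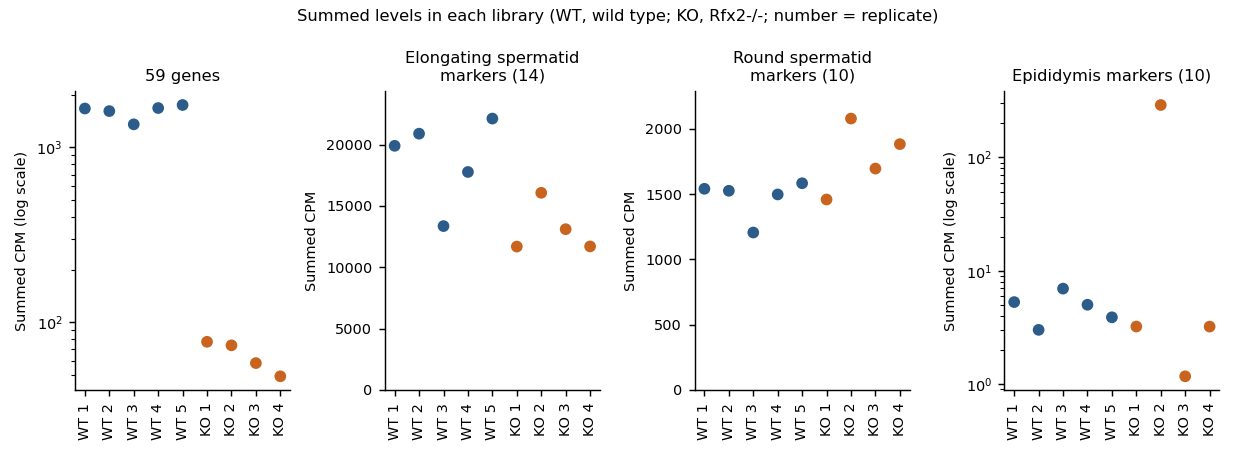
Summed CPM in each of the 9 libraries for the 59 genes and for markers of elongating spermatids, round spermatids and epididymis; the first and last panels have log axes. The 59 genes sum to 1355 to 1749 CPM in wild type, against 49.2 to 77.4 CPM in Rfx2-/- libraries, a separation that the selection requires. The markers were not selected by the rule, so the panels allow no contrast with the 59 genes. The elongating spermatid markers overlap between genotypes, and the epididymal markers are high in Rfx2-/- replicate 2.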

How the data were processed

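RNA was measured by the authors in 9 testis libraries, 1 per mouse. The deposited table holds raw counts of reads per gene, mapped to GRCm38 and counted by the authors with featureCounts over exons, and reads with several positions or overlapping exons of different genes were discarded. The submitters' processing notes name CASAVA 1.8.2, STAR 2.4 and featureCounts 1.4.6, and the use of strand is not given in the sources used here. Near-identical and overlapping genes can therefore lose reads.

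CPM were computed here from raw library totals (13574764 to 28800855). Groups follow the genotype in the labels, each replicate is a mouse, and age-matched littermates were used where possible, but which mice were littermates is not given in the sources used here. Genotypes were compared in edgeR 4.0.16 by its quasi-likelihood test (TMM, filterByExpr, robust; R 4.3.3), adjusted by Benjamini-Hochberg over 15613 genes, with DESeq2 1.42.0 as an alternative, and the procedure was tested on simulated data. Names and positions came from GENCODE M21, which held 96.6% of the gene IDs, and promoters from RefSeq (GRCm38.p6); entries were missing for 16 of the 59 genes. Intervals and floors (3 counts) cover counting error only. The genes, families, marker lists and tests were chosen with earlier results of these data known. Every nearly silenced gene is named; values in each library are given for the 10 with the highest wild type CPM, the 10 with the smallest share left among those with at least 50 wild type counts, and those with a library standing apart. Median library deviations use log2(CPM + 0.1).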

Additional observations from a re-analysis of the deposited data

Results flagged for a closer look

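Of 120 groups of libraries examined (59 genes and their summaries in each genotype, without the knockout groups of the 2 genes at 0 throughout), 9 contained a library farther from the others than the 95% limit of Dixon's test allows. About 6 are expected if 1 in 20 groups passes, a rate that need not hold for counts near 0. In Rfx2-/- replicate 1, A630010A05Rik (0.0347 CPM, 1 count), Gm12695 (0.0694 CPM, 2 counts) and Kcnn3 (0.208 CPM, 6 counts) were detected while the other 3 knockout libraries had 0 counts. In such a group any count at all passes the limit. In Rfx2-/- replicate 2, Pdzk1ip1 was at 1.87 CPM (26 counts) against 0.197 to 0.220 CPM, and Sag at 2.31 CPM (32 counts) against 0.294 to 0.527 CPM. Camk1g was at 0.592 CPM (9 counts) in Rfx2-/- replicate 4 against 0.243 to 0.294 CPM, and Npas4 at 0.514 CPM (7 counts) in Rfx2-/- replicate 3 against 0.132 to 0.174 CPM. In wild type replicate 4, Il33 was at 3.49 CPM against 2.16 to 2.51 CPM. The median log2 deviation of the 59 genes was -0.28 in wild type replicate 3 and 0.03 to 0.08 in the other wild type libraries.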

How the results depend on the processing

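The rule chose 59 genes, and 35 with at most 5% left, 114 with at most 20% left and 39 with a wild type mean of at least 5 CPM. TMM scaling gave 66 genes and DESeq2 size factors 67, both with all 59 included. Leaving out 1 library gave 56 to 65 genes, and a median remaining level of 3.49 to 4.79% for the 59 genes, which was 3.76% with TMM scaling. Called genes were 447 to 632 lower and 92 to 175 higher without 1 library, and DESeq2 called 211 higher. Of the tested paralogues and neighbours outside the nearly silenced genes, 8 were called lower, 5 to 8 without 1 library and 9 with DESeq2. These counts include Ncs1 with DESeq2, without the filter on low counts and without Rfx2-/- replicate 4, where 4 of the 8 were lost. The lowest count, 5, was found without Rfx2-/- replicates 3 or 4 or wild type replicates 1, 2 or 4. X-box-like sites were found in 3 promoters with at most 2 mismatches, 7 with at most 3 and 13 with at most 4. No direction reversed among the paralogues and neighbours recomputed. No paired analysis was possible because the litters of the mice are not given in the sources used here and the numbering of replicates only follows the sample list. Depth limits the genes at 0 to 3 counts, where the share left is known only as an upper limit or a wide interval.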
